A study of Mus musculus with 4 samples.

Results

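The genes for the D cyclins and for the inhibitors of cyclin-dependent kinases (CDKs) were followed in mouse cells growing with Flt3 ligand. The set holds 10 of the 26026 genes in the deposited expression table, picked by gene symbol: 3 D cyclin genes (Ccnd1, Ccnd2 and Ccnd3), 3 Cip/Kip inhibitor genes (Cdkn1a, Cdkn1b and Cdkn1c) and 4 Ink4 inhibitor genes (Cdkn2a, Cdkn2b, Cdkn2c and Cdkn2d). The labels name the cells BMDC without spelling it out; in Flt3 ligand cultures the term usually stands for bone marrow-derived dendritic cells. They were kept in Flt3 ligand at 100 ng/mL and taken at day 3 or day 5. Each day had 1 library of wild-type cells and 1 of Nfkb1-/- cells, both given as C57/B16, which makes 4 libraries of polyadenylated RNA. The sources used here do not give the animals' number or age, or the structure of the Nfkb1 allele. With 1 library per group there was no replicate error, no difference below has a replicate check, and no p-value is given.

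D cyclins are the growth-factor-dependent activators of CDK4 and CDK6, which phosphorylate the retinoblastoma protein and let cells leave G1. Ink4 proteins bind CDK4 and CDK6 and keep the D cyclins away from them. Cip/Kip proteins bind whole cyclin and CDK complexes, block those that contain CDK2, and can also help D cyclins to assemble with their kinases. In blood-forming cells the D cyclins are used in a lineage-dependent mix, and loss of single inhibitors is known to alter stem cell quiescence or progenitor expansion. Nfkb1 encodes p105 and its processed form p50, a subunit of the NF-kB transcription factors, and the study asked how p50 and the subunit RelA act together during this differentiation.

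The unit is RPKM, reads scaled to transcript length and to library size, so levels can be set side by side between genes. The values proved to be whole reads, and the recovered totals ran from 15255070 to 16215214 reads per library. A difference is that of log2(RPKM + 1), which understates changes of low genes, and it was read for 11786 genes whose mean reached 1 RPKM. Of the 10 genes 7 passed that filter; Cdkn1c, Cdkn2a and Cdkn2b did not. The size rule called a gene whose log2 difference reached 1 in either direction, and a looser rule asked for 1.5-fold on the same scale. Ratios are of reads per library total, with exact Clopper-Pearson 95% intervals that cover counting error only, since no molecular identifiers are named and reads need not be independent molecules. Nfkb1 itself was at 74.8 and 114 RPKM in wild-type cells (day 3 and day 5) and at 56.0 and 64.7 RPKM in the libraries labelled knockout, so its transcript was lower there and not absent. A value per gene does not show which exons the reads came from. The 14 dendritic cell markers, among them Flt3, Itgax, Clec9a and Siglech, were all above 20 reads in every library. So were the monocyte, primary granule, megakaryocyte and mast cell lists, and late neutrophil markers summed to 32373 RPKM in wild-type cells at day 3 against 2875 RPKM for the dendritic list, so the presence of these markers does not single out a cell type.

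The members fell into 3 tiers of level. Ccnd1, Ccnd2, Ccnd3, Cdkn1a, Cdkn1b and Cdkn2c ran between 16.003 and 73.8 RPKM over the libraries, Cdkn2d stayed between 1.69 and 1.99 RPKM, and Cdkn1c, Cdkn2a and Cdkn2b stayed below 1 RPKM in each library. Ccnd3 headed the order in 3 of the 4 libraries and Ccnd2 headed it in Nfkb1-/- cells at day 5. In wild type at day 3 the next 3 places were held by Cdkn1b (29.1 RPKM), Ccnd1 (27.1 RPKM) and Ccnd2 (25.9 RPKM), and Cdkn1a (16.5 RPKM) stood beside Cdkn2c (16.003 RPKM). Of these neighbours, Cdkn1b and Ccnd1, Ccnd1 and Ccnd2, and Cdkn1a and Cdkn2c did not differ beyond counting error. The same held for Cdkn1a and Cdkn1b in Nfkb1-/- cells at day 3, for Ccnd3 and Ccnd1 in both day 5 libraries, and for Cdkn1a and Cdkn2c in wild-type cells at day 5. In the plot of levels by gene and library, Ccnd1, Ccnd2 and Cdkn1a show the widest spacing between libraries on the upper tier.

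**Figure D1:**
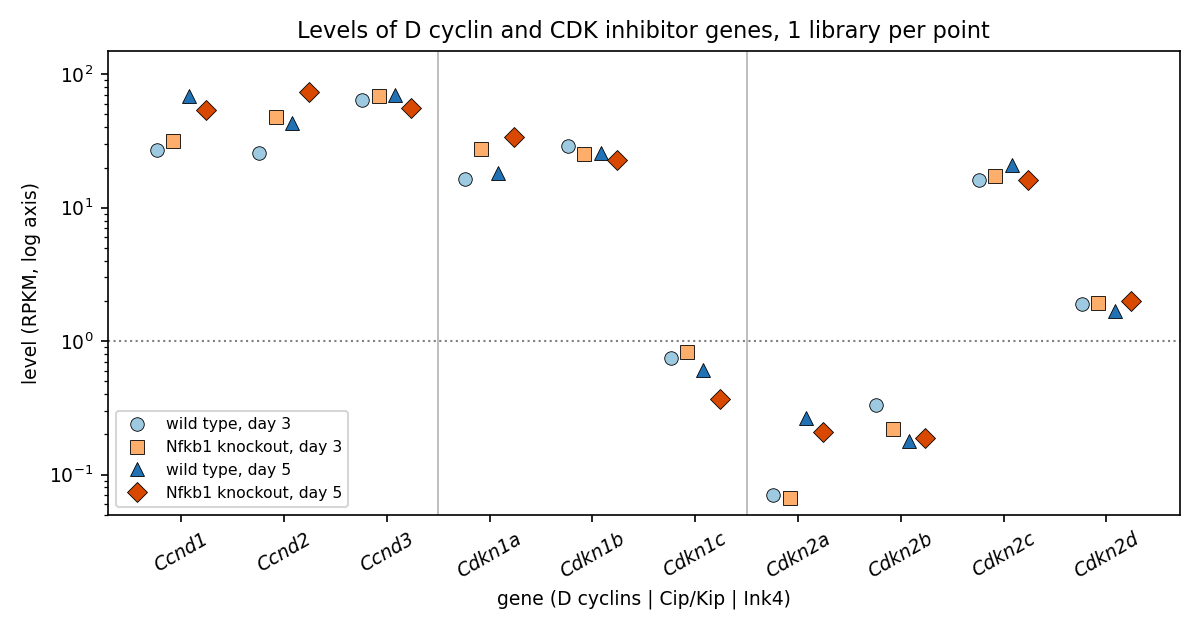
Level of each gene in RPKM on a log axis, with 1 point per library, vertical lines between the 3 families and a dotted line at 1 RPKM, the minimum mean. Ccnd1 ran from 27.1 to 68.9 RPKM and Ccnd2 from 25.9 to 73.8 RPKM, while Cdkn1b stayed between 22.7 and 29.1 RPKM.

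Between genotypes, Ccnd2 and Cdkn1a were the members that stood higher in Nfkb1-/- cells at both days by the 1.5-fold rule, while 0 members passed the size rule at either day. In the background, 1.86% of all tested genes passed the size rule in either direction at day 3 and 4.39% at day 5. The 1.5-fold rule was passed upward by 2 of the 7 members at day 3, where 7.14% of all tested genes passed it, and by 2 of 7 at day 5, where 5.77% did. The genes were the same at both days, and 2.39% of all tested genes were higher by that rule at both. The 0 members lower by 1.5-fold stand beside 3.36% of tested genes at day 3 and 8.98% at day 5. The medians over the 7 members were 0.10 at day 3 and -0.17 at day 5, beside 0.13 and 0.01 over all tested genes.

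Ccnd2 encodes cyclin D2, the D cyclin that responds to cytokines in many blood cells. Its level was 25.9 RPKM in wild-type cells and 48.1 RPKM in Nfkb1-/- cells at day 3, and 42.8 RPKM in wild-type cells and 73.8 RPKM in Nfkb1-/- cells at day 5. The knockout library was the higher of the pair at each day, and the day 3 knockout library was already above the day 5 wild-type library. The ratio of Nfkb1-/- to wild-type reads was 1.86 (1.77 to 1.95) at day 3 on 2279 and 4501 reads, and 1.72 (1.66 to 1.79) at day 5 on 3984 and 6557 reads. The log2 differences of 0.87 and 0.77 were exceeded by 1.83% and 2.64% of all tested genes. In bulk RNA a change in the share of cells that use a gene and a change in its RNA per cell cannot be told apart, which holds for every result here.

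Ccnd1, the gene for cyclin D1, followed another order. Its wild-type libraries stood at 27.1 RPKM (day 3) and 68.9 RPKM (day 5), and its Nfkb1-/- libraries at 31.5 and 53.8 RPKM. The knockout library was thus slightly the higher one at day 3 and the lower one at day 5, with ratios of 1.16 (1.09 to 1.24) and 0.781 (0.745 to 0.819). The log2 differences were 0.21 and -0.35, and the former shrank to 0.05 after a rescaling of the libraries by the median ratio. Ccnd3, the gene for cyclin D3, stood at 64.4 RPKM (wild type) and 68.7 RPKM (knockout) at day 3, and at 69.5 and 55.6 RPKM at day 5. Its 3 upper libraries lay close together and the knockout at day 5 was the lowest. The ratio of Nfkb1-/- to wild-type reads was 1.07 (1.01 to 1.13) at day 3, a direction that turned under the median ratio rescaling (log2 difference 0.09 against -0.07), and 0.800 (0.753 to 0.851) at day 5.

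The mix of D cyclin transcripts also differed between genotypes. The 3 genes summed to 117 RPKM in wild-type cells and 148 RPKM in Nfkb1-/- cells at day 3, and to 181 RPKM and 183 RPKM at day 5. Ccnd2 made up 22.0% of the sum in wild-type cells and 32.4% in Nfkb1-/- cells at day 3, and 23.6% and 40.3% at day 5. Ccnd1 made up 23.1% and 21.2% at day 3 and 38.0% and 29.4% at day 5, and Ccnd3 made up 54.9% and 46.3% at day 3 and 38.3% and 30.4% at day 5. Within a library the ratio of Ccnd2 to Ccnd1 per length needs no scaling between libraries. It was 0.954 (0.894 to 1.02) in wild-type cells and 1.53 (1.45 to 1.61) in Nfkb1-/- cells at day 3, and 0.622 (0.595 to 0.650) in wild-type cells and 1.37 (1.31 to 1.43) in Nfkb1-/- cells at day 5. Ccnd2 exceeded Ccnd1 in both knockout libraries and in neither wild-type library. Ccnd3 exceeded Ccnd2 in 3 libraries, by 2.49 times (2.34 to 2.64) in wild-type cells at day 3, and was below it in Nfkb1-/- cells at day 5 at 0.754 times (0.715 to 0.794).

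**Figure D2:**
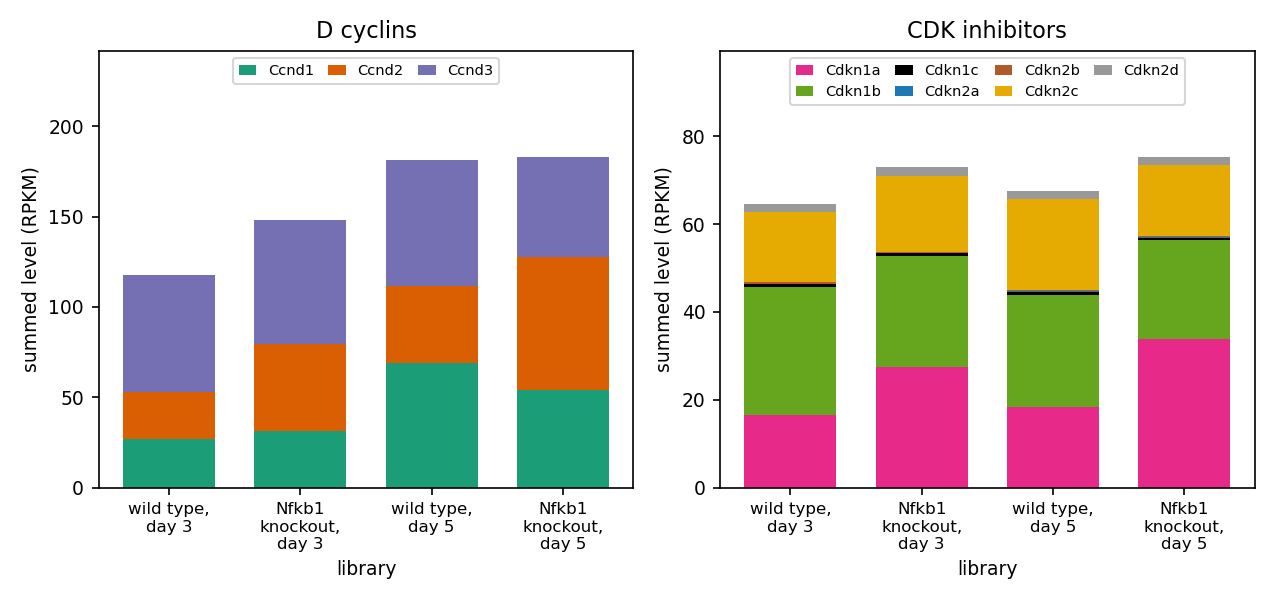
Summed level in RPKM of the 3 D cyclin genes (left) and the 7 inhibitor genes (right) in each of the 4 libraries, stacked by gene. The D cyclin sums at day 5 were 181 and 183 RPKM, with the Ccnd2 segment at 42.8 RPKM in wild-type cells and 73.8 RPKM in Nfkb1-/- cells.

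Cdkn1a encodes p21, the Cip/Kip inhibitor best known as a target of p53. Its level was 16.5 RPKM in wild-type cells and 27.4 RPKM in Nfkb1-/- cells at day 3, and 18.3 RPKM and 33.8 RPKM at day 5. Both knockout libraries lay above both wild-type libraries. The ratio of Nfkb1-/- to wild-type reads was 1.66 (1.48 to 1.86) at day 3 on 481 and 849 reads, and 1.85 (1.67 to 2.05) at day 5 on 563 and 995 reads. The log2 differences were 0.70 and 0.85, exceeded by 3.78% and 1.80% of all tested genes. With the median ratio rescaling the day 3 difference was 0.54, under the 1.5-fold rule.

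Cdkn1a is shown here with its promoter sequence, since it was the tested inhibitor gene with the widest genotype difference. Its RefSeq entry has a pair of start sites, as have those of Ccnd3, Cdkn2a and Cdkn2c. Cdkn1b, which did not differ by 1.5-fold, is shown for comparison. The windows come from RefSeq on GRCm38.p6 (the authors' notes name mm9, and no coordinates were joined between the builds), run from 250 bases before to 50 bases after a start site, and are all on the plus strand. Windows were matched for 7 of the 10 genes, all but Ccnd1, Ccnd2 and Cdkn1c. In the first sequence capitals mark ACATGT, a core found in p53 sites, and in the others they mark GGGNNNNNCC on either strand, a loose form of the NF-kB motif.
Cdkn1a, chr17:29090729-29091028: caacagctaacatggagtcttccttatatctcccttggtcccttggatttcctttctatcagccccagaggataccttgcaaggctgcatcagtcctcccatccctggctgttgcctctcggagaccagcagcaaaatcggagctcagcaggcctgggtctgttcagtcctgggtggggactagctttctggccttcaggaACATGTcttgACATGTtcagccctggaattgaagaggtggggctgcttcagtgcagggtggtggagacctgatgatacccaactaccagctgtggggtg
Cdkn1a, chr17:29093519-29093818: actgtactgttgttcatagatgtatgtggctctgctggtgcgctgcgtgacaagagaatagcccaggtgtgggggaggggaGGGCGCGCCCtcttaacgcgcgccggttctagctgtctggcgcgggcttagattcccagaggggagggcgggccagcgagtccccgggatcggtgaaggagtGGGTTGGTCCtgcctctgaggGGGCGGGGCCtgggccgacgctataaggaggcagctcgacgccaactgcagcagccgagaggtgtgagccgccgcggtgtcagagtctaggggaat
Cdkn1b, chr6:134920151-134920450: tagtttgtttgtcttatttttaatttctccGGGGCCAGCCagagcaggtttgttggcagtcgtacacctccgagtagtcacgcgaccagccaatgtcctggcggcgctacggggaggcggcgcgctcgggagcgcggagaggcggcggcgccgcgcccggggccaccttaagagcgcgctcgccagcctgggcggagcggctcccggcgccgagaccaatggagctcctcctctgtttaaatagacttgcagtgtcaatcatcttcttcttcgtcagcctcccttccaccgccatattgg
The upstream Cdkn1a window held ACATGT 2 times, and 5.28% of the 32851 windows of that length held it at all. That window held GGGNNNNNCC 0 times. The downstream Cdkn1a window held the loose NF-kB motif at 3 positions, 1 of which overlaps the GC box GGGCGG, and the Cdkn1b window held it at 1 position. This motif is common, with 50.8% of all windows holding it, and GGGCGG was in 35.7%. Of the 11 windows of the 7 matched members, 9 held the loose NF-kB motif. A window of Cdkn2c held it at 5 positions and that of Cdkn2d at 3, and neither gene passed the 1.5-fold rule between genotypes. TATAAA (in 13.6% of windows), the E-box CACGTG (7.15%) and CCAAT (37.4%) were searched as well, and of the windows printed that of Cdkn1b held CCAAT 3 times. All motifs were searched on both strands, and a match of letters shows neither binding nor a cause.

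Of the other Cip/Kip genes, Cdkn1b stood slightly lower in Nfkb1-/- cells at both days and Cdkn1c was low in every library. Cdkn1b, the gene for p27, an inhibitor of quiescent and differentiating cells, was at 29.1 RPKM in wild-type cells and 25.3 RPKM in Nfkb1-/- cells at day 3, and at 25.7 and 22.7 RPKM at day 5. The knockout library was the lower of each pair, with ratios of 0.867 (0.794 to 0.946) and 0.884 (0.805 to 0.970), too small for either rule. The order of these inhibitors differed between the genotypes. Cdkn1a stood at 0.566 times Cdkn1b (0.507 to 0.631) in wild-type cells and at 1.08 times (0.987 to 1.19) in Nfkb1-/- cells at day 3, and at 0.711 times (0.640 to 0.790) and 1.49 times (1.36 to 1.63) at day 5. Wild type had more Cdkn1b than Cdkn1a at both days, and the knockout had more Cdkn1a than Cdkn1b at day 5. Cdkn1c, the gene for p57, an imprinted inhibitor of stem cells, held 22 reads in wild-type cells and 26 in Nfkb1-/- cells at day 3, and 19 and 11 at day 5. These are levels of 0.743, 0.826, 0.607 and 0.368 RPKM, and the interval of the genotype ratio included 1 at both days (0.606 to 2.06 and 0.261 to 1.34). The ratio of day 5 to day 3 was 0.446 (0.199 to 0.933) in Nfkb1-/- cells, an interval that lay below 1. In wild-type cells it was 0.817 (0.418 to 1.58). Both rest on few reads of a gene under the filter.

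Among the Ink4 genes, Cdkn2c, which encodes p18, was the one at a sizeable level and held between 87.1% and 90.7% of the family's summed RPKM. It was at 16.003 RPKM in wild-type cells and 17.2 RPKM in Nfkb1-/- cells at day 3, and at 20.8 and 16.1 RPKM at day 5, so wild type at day 5 was the highest library. The Nfkb1-/- library held 1.08 times the wild-type reads (0.912 to 1.27) at day 3 and 0.776 times (0.661 to 0.909) at day 5. The day 3 direction turned under the median ratio rescaling (log2 difference 0.10 against -0.06). Cdkn2d, the gene for the Ink4 protein p19, was at 1.91 and 1.92 RPKM at day 3 and at 1.69 (wild type) and 1.99 RPKM (knockout) at day 5. Its genotype ratios of 1.00 (0.722 to 1.40) and 1.18 (0.845 to 1.66) rest on 69 to 79 reads per library, so a difference was not detectable at this depth. The day 3 log2 difference turned from 0.00 to -0.11 under the median ratio rescaling and to -0.05 when libraries were brought to the same sum of RPKM.

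Cdkn2a and Cdkn2b, neighbours on the chromosome, were at the limit of detection. Cdkn2a carries the reading frames of the inhibitor p16 and of Arf, a stabiliser of p53, and the table does not separate them. It held 1 read in each day 3 library, 4 reads in wild-type cells at day 5 and 3 in Nfkb1-/- cells at day 5. The table holds no 0, and 7981 genes stand at 1 read in every library, so 1 read here may be none. Cdkn2b, the gene for p15, held 7 reads in wild-type cells and 5 in Nfkb1-/- cells at day 3 and 4 in each day 5 library. No genotype difference of either gene was detectable, with intervals of the Cdkn2b ratio from 0.168 to 2.46 at day 3 and from 0.195 to 5.62 at day 5.

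**Figure D3:**
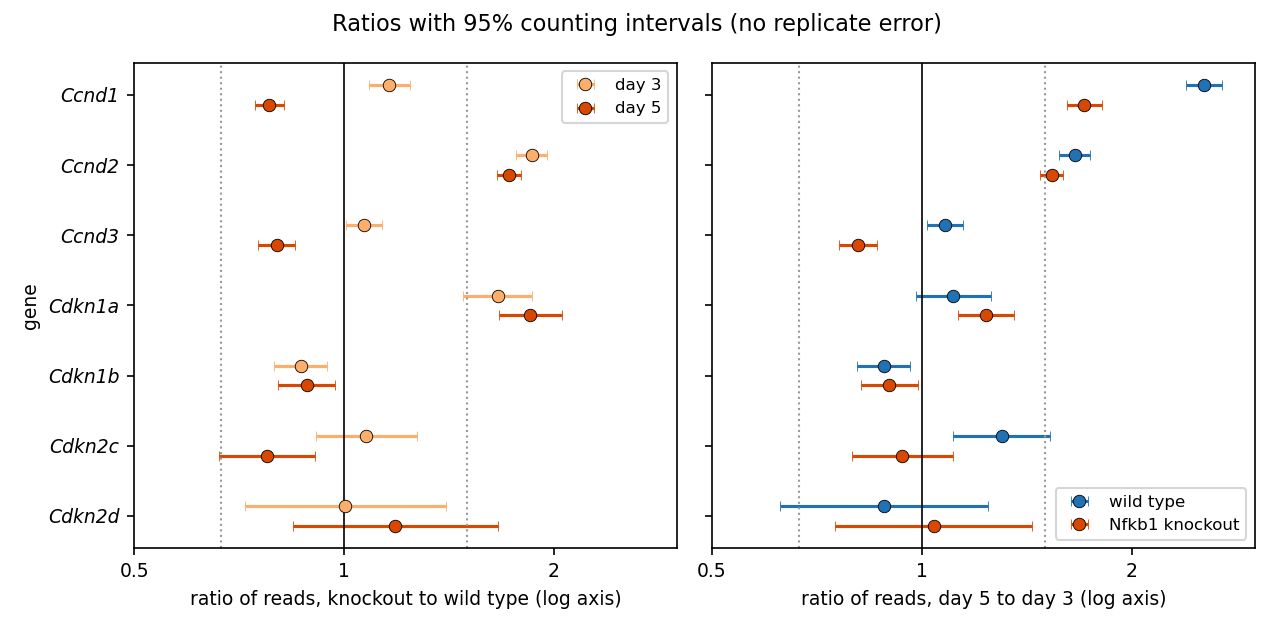
Ratio of reads per library total for the 7 genes that passed the filter, knockout to wild type at each day (left) and day 5 to day 3 in each genotype (right), on a log axis, with bars for the exact 95% counting interval and dotted lines at 1.5-fold. Ccnd2 and Cdkn1a lie to the right at both days on the left, at 1.66 to 1.86, and Ccnd1 reaches 2.54 on the right in wild-type cells.

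With time in culture Ccnd1 and Ccnd2 stood higher, and none of the 4 tested inhibitor genes passed either rule. In wild type 1 of the 7 members passed the size rule from day 3 to day 5, Ccnd1, beside 3.85% of tested genes passing it in either direction, and in Nfkb1-/- cells 0 did, beside 3.61%. The 1.5-fold rule was passed upward by Ccnd1 and Ccnd2 in wild-type cells (background 8.47%) and by the same genes in Nfkb1-/- cells (background 3.01%), and 1.07% of tested genes passed it upward in both genotypes. Downward, 0 members passed it, beside 5.47% of tested genes in wild-type cells and 7.24% in Nfkb1-/- cells. For the shift of the genotype difference from the one day to the other, 0 members passed the size rule (background 3.63%) and 0 passed the 1.5-fold rule upward (3.04%) or downward (10.3%). Ccnd1 stood 2.54 times (2.39 to 2.70) higher at day 5 in wild-type cells and 1.71 times (1.61 to 1.81) higher in Nfkb1-/- cells, log2 differences of 1.31 and 0.75. Of all tested genes, 0.619% exceeded the former and 1.26% the latter. Ccnd2 stood 1.65 times (1.57 to 1.74) higher in wild-type cells and 1.53 times (1.48 to 1.59) higher in Nfkb1-/- cells. These values for Ccnd2 lie close to the 1.5-fold rule and fell under it with the median ratio rescaling in both genotypes, at log2 differences of 0.54 in wild-type cells and 0.58 in Nfkb1-/- cells. Ccnd3 differed by 0.11 in wild-type cells, which turned to -0.06 under that rescaling, and by -0.30 in Nfkb1-/- cells.

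Of the inhibitors, Cdkn1a differed by 0.14 between the days in wild-type cells and by 0.29 in Nfkb1-/- cells, with ratios of 1.11 (0.979 to 1.25) and 1.23 (1.12 to 1.35). The wild-type value turned to -0.02 under the median ratio rescaling. Cdkn1b differed by -0.18 and -0.15, Cdkn2c by 0.36 in wild-type cells and -0.09 in Nfkb1-/- cells, and Cdkn2d by -0.12 and 0.04. The summed RPKM of the 7 inhibitor genes was 64.7 in wild-type cells and 72.9 in Nfkb1-/- cells at day 3, and 67.5 and 75.4 at day 5. The ratio of the D cyclin sum to that sum was 1.82 in wild-type cells and 2.04 in Nfkb1-/- cells at day 3, and 2.69 and 2.43 at day 5. Both day 5 libraries were above both day 3 libraries in that ratio, and the genotypes changed places between the days.

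**Figure D4:**
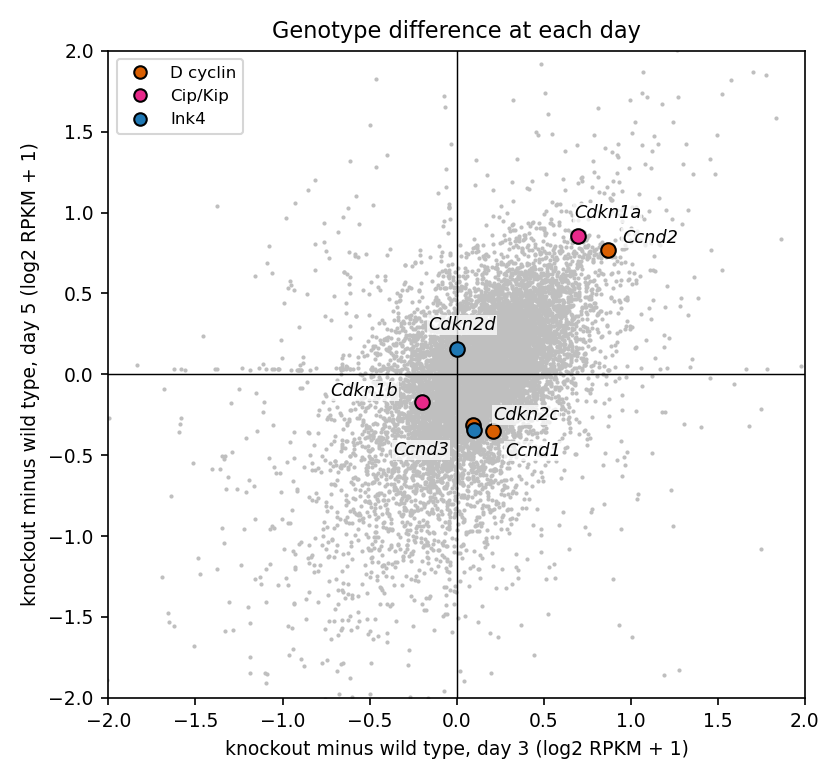
Genotype difference in log2(RPKM + 1) at day 3 (horizontal) and day 5 (vertical) for the tested genes in grey and the 7 members that passed the filter in colour by family; 58 of 11786 tested genes lie outside the plotted range. Ccnd2 (0.87 and 0.77) and Cdkn1a (0.70 and 0.85) lie at the upper right, and Ccnd1, Ccnd3 and Cdkn2c lie below 0 at day 5.

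By a rule of smallest distance between centred log2(RPKM + 1) profiles over the 4 libraries, the genes closest to Ccnd1 among 7710 candidates were Atp2b4 (distance 0.09), Spp1 (0.13) and Lmo1 (0.15). Atp2b4, a plasma membrane calcium pump gene, ran at 8.17 and 9.56 RPKM at day 3 (wild type, knockout) and at 20.5 and 17.4 RPKM at day 5. Closest to Ccnd2 were Nudcd2 (0.11), Lrrc75a (0.13) and Mrto4 (0.13), the last a ribosome assembly gene at 6.54 and 13.8 RPKM at day 3 and 10.6 and 20.3 RPKM at day 5. Each distance rests on 4 libraries only. The other 5 members that passed the filter spanned less than 1 on the log2 scale, Cdkn1a by 0.99, and were given no neighbours.

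Of the kinases that D cyclins activate, Cdk4 was past the 1.5-fold rule in Nfkb1-/- cells at both days and Cdk6 at day 5. Of 7 genes for CDK partners and the CDK-activating kinase, 7 lay above 0 at day 3 and 6 at day 5, beside 66.6% and 51.2% of all tested genes. Their medians were 0.39 and 0.21, and 2 were higher by the 1.5-fold rule at each day, beside 7.14% and 5.77% of all tested genes. With the median ratio rescaling the medians were 0.24 and 0.19, with 0 past that rule at day 3 and 1 at day 5. Cdk4 was named here after its values were seen, as was Cdk1. Cdk4 stood at 53.1 RPKM in wild-type cells and 82.5 RPKM in Nfkb1-/- cells at day 3. At day 5 it stood at 77.2 and 117 RPKM. Cdk6 stood at 15.6 and 23.1 RPKM at day 3 and at 18.1 and 32.4 RPKM at day 5. Its ratios were 1.48 (1.41 to 1.55) and 1.78 (1.71 to 1.86). Its log2 difference of 0.54 at day 3 did not pass the rule. Cdk6 was highest in Nfkb1-/- cells at day 5, the library in which Ccnd2 was also highest. The mitotic kinase Cdk1 passed the 1.5-fold rule at day 3, with a difference of 0.74.

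S phase genes act after the step that D cyclins drive. Of 22 S phase and proliferation genes, 7 were higher in Nfkb1-/- cells by the 1.5-fold rule at day 3 and 6 at day 5, beside 7.14% and 5.77% of all tested genes. Above 0 lay 21 of the 22 at each day, beside 66.6% and 51.2% of all tested genes, with medians of 0.53 and 0.52. With the median ratio rescaling 2 passed at day 3 (3.28% of all tested genes) and 5 at day 5 (5.35%), with medians of 0.36 and 0.50. Mki67, a marker of cycling cells, was below 0 at day 3 (-0.20) and was at 0.70 at day 5. Tk1, a thymidine kinase gene named after its values were seen, was below 0 at day 5 (-0.15). Cyclins E, A and B with their activators had medians of 0.46 and 0.34 over 10 genes. The mitotic cyclin Ccnb1 passed the 1.5-fold rule at both days, at 0.94 and 0.59, and Ccne1, a G1 to S cyclin named after its values were seen, passed it at day 5 at 0.75. With the median ratio rescaling 1 gene of the list passed at each day. The 13 retinoblastoma family and E2F genes had medians of 0.14 at each day with 0 past the 1.5-fold rule, beside medians of 0.13 and 0.01 over all tested genes. Tfdp2, a dimer partner of E2F proteins, stood at 3.24 RPKM in wild-type cells and 3.65 RPKM in Nfkb1-/- cells at day 3 and at 4.87 and 2.92 RPKM at day 5. Its day 5 difference of -0.58 lay just short of the rule and passed it, at -0.60, with the median ratio rescaling. The 15 tested genes for the turnover of cyclin D and inhibitors had medians of 0.26 and 0.15. By the 1.5-fold rule 1 was higher at each day, beside 7.14% and 5.77% of all tested genes. At day 3 it was Cks1b, a cofactor in p27 degradation (0.70). At day 5 it was Skp2, the ligase subunit that Cks1b works with (0.60, named after its values were seen). These are single genes in a short list, and nothing is read from them about the group. Neither gene passed the rule with the median ratio rescaling.

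Of 27 tested regulators upstream of these genes, 1 stood 1.5-fold higher and 2 lower at day 3, beside 7.14% and 3.36% of all tested genes. At day 5 these counts were 1 and 5, beside 5.77% and 8.98%. These are small counts in a short list, and nothing is read from them about the group. The list's median was 0.06 at day 3, which turned to -0.09 with the median ratio rescaling and -0.02 at equal sums, and -0.11 at day 5. The higher gene at both days was Myc, a growth regulator that acts on Ccnd2 and Cdk4 (named after its values were seen), at 21.4 RPKM in wild-type cells and 35.6 RPKM in Nfkb1-/- cells at day 3 and at 24.8 and 40.4 RPKM at day 5. With the median ratio rescaling Myc fell under the rule at day 3, at 0.55. Mxd1, a Myc antagonist, stood at 73.2 and 48.9 RPKM at day 3 and at 34.5 and 11.0 RPKM at day 5, a difference of -1.56 at day 5. Mycl, a Myc relative of dendritic cells, stood at 3.77 and 1.57 RPKM at day 3 and at 14.7 and 3.62 RPKM at day 5, a difference of -1.76 at day 5. Cbx7, a Polycomb protein known to repress Cdkn2a, stood at 12.4 and 6.63 RPKM at day 3 and at 9.69 and 4.31 RPKM at day 5, ratios of 0.535 (0.464 to 0.616) and 0.445 (0.374 to 0.527). Cdkn2a held 4 reads or fewer in each library, too few to read a difference from, and a link to Cbx7 was not tested.

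Of 15 other p53 targets tested, 0 stood 1.5-fold higher in Nfkb1-/- cells at either day, beside 7.14% and 5.77% of all tested genes, a share at which a list of this length holds few or none. Downward, 0 passed at day 3 (background 3.36%) and 3 at day 5 (8.98%), and the medians were 0.01 and -0.01. Under the median ratio rescaling the day 3 median turned to -0.13, and at equal sums the medians were -0.05 and 0.01. The downward genes at day 5 were Gadd45a (-0.87), Trp53inp1 (-0.64) and Bbc3 (-0.75, named after its values were seen). Fas, a death receptor gene, differed by -0.19 at day 3 and 0.05 at day 5. The median of all tested genes was 0.13 at day 3 and 0.01 at day 5. Of the NF-kB subunit genes, Nfkb1 alone passed the 1.5-fold rule, downward at day 5.

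**Figure D5:**
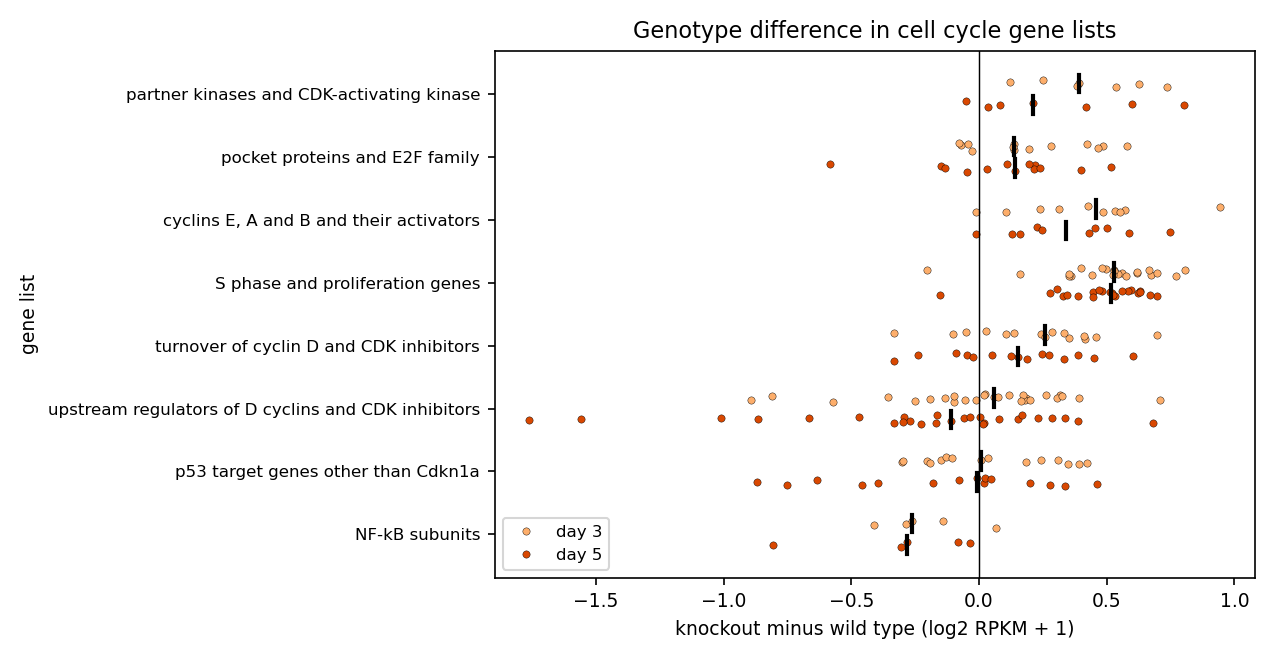
Knockout minus wild type in log2(RPKM + 1) for each tested gene of 8 gene lists around the D cyclins and CDK inhibitors at day 3 and day 5, with a black bar at each median. S phase and proliferation genes have medians of 0.53 and 0.52, and p53 targets without Cdkn1a have medians of 0.01 and -0.01.

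Markers of several cell types differed between the same libraries. By the size rule, 0.882% of all tested genes were lower in Nfkb1-/- cells and 0.976% higher at day 3. At day 5 these shares were 3.22% and 1.16%. The 14 dendritic markers summed to 2875 RPKM in wild-type cells and 1722 RPKM in Nfkb1-/- cells at day 3 and to 4698 and 1963 RPKM at day 5. By the size rule 0 and 11 of 14 were lower. By the 1.5-fold rule 10 and 11 were lower, beside 3.36% and 8.98% of all tested genes. Cd74, H2-Aa and H2-Ab1 held most of each sum, with 1333, 651 and 514 RPKM in wild-type cells at day 3. Below 0 lay 12 of the 14 at day 3, all but Flt3 and Bst2, and 14 at day 5. The 11 late neutrophil markers summed to 32373 and 22778 RPKM at day 3 and to 13051 and 2784 RPKM at day 5. Of these, 1 and 10 were lower by the size rule, and 6 and 11 by the 1.5-fold rule. The 10 monocyte and macrophage markers summed to 1273 and 1891 RPKM at day 3 and to 1268 and 1736 RPKM at day 5, with 2 higher at day 3 and 3 higher and 1 lower at day 5. The 7 mast cell, basophil and eosinophil markers summed to between 551 and 576 RPKM in 3 libraries and to 135 RPKM in Nfkb1-/- cells at day 5, where 7 of 7 were lower by the size rule. The 6 megakaryocyte markers summed to 788 RPKM in wild-type cells at day 5 and to between 319.7 and 372 RPKM in the other libraries. The 6 primary granule markers summed to between 385 and 928 RPKM and were split between genotypes at day 5. There 3 of the 6 were lower by the size rule (Elane, Cebpe and Fcnb). Prtn3 (0.98) and Ctsg (0.56) lay above 0, all named after their values were seen. The 8 B cell markers summed to 358 and 314 RPKM at day 3 and to 197 and 112 RPKM at day 5. Of the 6 tested, 0 and 2 were lower by the size rule. The 7 erythroid markers summed to 259 and 57.9 RPKM at day 3 and to 16.9 and 8.08 RPKM at day 5, and the T and NK cell and stromal lists stayed at or below 28.9 RPKM. The 7 stem and progenitor markers summed to between 228 and 268 RPKM over the libraries. Spi1 held most of each sum, with 172 RPKM in wild-type cells at day 3. Of the 6 tested, 0 passed the size rule between genotypes at day 3, with 4 above 0 and 2 below. At day 5, 3 lay above 0 and 3 below, among them Gata2 (-1.16, past the size rule) and Kit (-0.83), both named after their values were seen. Markers at 1 read or none were Cd3g (T cell) and Alas2 (erythroid) in Nfkb1-/- cells at day 5 and Lepr (stromal) in all libraries but wild type at day 5. Their part in the differences of Ccnd1, Ccnd2, Cdkn1a and the other members was not tested.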

How the data were processed

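RNA was measured in 4 libraries, 1 per genotype and day. The deposited table gives the authors' RPKM values for 26026 genes, per the file headers. HISAT2, SAMtools and mm9 are named, without versions, in the submitters' processing notes. The counting tool, annotation and strand setting are not stated there, so reads of overlapping genes may be shared. Whole reads were recovered from the steps of the RPKM values (tolerance 0.003 reads) for 100.0% of genes. Lengths came from reference transcripts for 7008 genes and otherwise, as for the members other than Cdkn1a and Cdkn2c, were the smallest that gave whole reads, which could understate the reads by a whole factor. Differences used a pseudocount of 1 RPKM, no further scaling and a minimum mean of 1 RPKM. No count model was run, since no group has a replicate. Alternatives were pseudocounts of 0.1 and 5 RPKM, rescaling by the median ratio (over genes reaching that mean) or to equal sums, no filter, and a minimum mean of 5 RPKM. Named genes were the 10 members, Nfkb1, up to 3 genes per list past the size rule or else the widest difference, and the 3 nearest profiles of members spanning at least 1. Members and lists were chosen with earlier results of these data known. The recovery of reads and the size rule were tested on simulated libraries with large changes in well-covered genes and counting noise only. The 1.5-fold rule, the intervals, the ratios between members and the shifts were not simulated. Python 3.11.15 with NumPy, pandas, SciPy and matplotlib was used.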

Additional observations from a re-analysis of the deposited data

Results flagged for a closer look

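Several members differed in opposite directions between genotypes at the 2 days, or between days in the 2 genotypes. Each shift rests on 1 library per group, and none has a replicate check. Counting intervals of the shift in log2 read ratio, by a normal approximation, were -0.69 to -0.45 for Ccnd1 and -0.54 to -0.29 for Ccnd3. They were -0.80 to -0.15 for Cdkn2c and -0.42 to 0.89 for Cdkn2d, and cover counting error only. For Ccnd1 the knockout minus wild-type difference was 0.21 at day 3 and -0.35 at day 5, a shift of -0.56. For Ccnd3 it was 0.09 and -0.32, a shift of -0.41, which is also the shift between its day 5 minus day 3 differences in wild type (0.11) and the knockout (-0.30). The 0.09 and the 0.11 turned negative with the median ratio rescaling, as did the day 3 value of Cdkn2c. For Cdkn2c the genotype difference was 0.10 and -0.35, a shift of -0.45, and its difference between days was 0.36 in wild type and -0.09 in the knockout. For Cdkn2d the difference between days was -0.12 in wild type and 0.04 in the knockout, a shift of 0.15, with counting intervals that included no change on both sides. The median shift of all tested genes was -0.14.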

How the results depend on the processing

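The count of members past the size rule was the same under all 6 alternatives in each of the 5 comparisons, the change of the genotype difference included. The counts by the 1.5-fold rule, run under the same alternatives after the data were seen, moved in 4 cases. With the median ratio rescaling 1 member in place of 2 passed for the knockout at day 3 (Ccnd2), for wild type between days (Ccnd1) and for the knockout between days (Ccnd1), and with a pseudocount of 5 RPKM 1 member (Ccnd1) passed for the knockout between days. That rescaling moved the median of all tested genes from 0.13 to -0.02 at day 3. It turned the split of genes past the size rule at day 3 from 115 higher and 104 lower to 70 and 156. Of 140 values for the 7 tested members under the pseudocounts and rescalings, 121 stayed within counting error of the main value and 19 moved beyond it. Of the 140, 8 changed sign, and 0 of the values past the 1.5-fold rule reversed. That 0 was fixed beforehand, since the rescaling factors (0.911 to 1.04) are too small to turn such a value. A pseudocount cannot turn the sign of a difference between 2 libraries. Genes with wide counting intervals, such as Cdkn2d, could hardly move beyond them. The sign changes were those of Ccnd3 (-0.07), Cdkn2c (-0.06) and Cdkn2d (-0.11) between genotypes at day 3, of Ccnd3 (-0.06) and Cdkn1a (-0.02) between days in wild type and of the Ccnd2 shift (0.04) with the median ratio rescaling, and of Cdkn2d at day 3 (-0.05) and the Ccnd2 shift (0.02) at equal sums. No analysis paired by replicate was possible because each group has 1 library and the labels carry no replicate numbers. A fit that takes the days as a block, and so as the replicates of each genotype, was not run. Every comparison is limited by its 1 library per group, and those of Cdkn1c, Cdkn2a, Cdkn2b and Cdkn2d by few reads as well.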
